A study of Mus musculus with 12 samples.

Results

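The replication-dependent histone genes of the mouse, named Hist1h, Hist2h, Hist3h and Hist4h in older gene tables, were followed through the open chromatin of bone marrow from young and old NZO mice. The set held 67 protein-coding genes of the RefSeq table of GRCm38, and their peaks were the 54 of 75281 consensus peaks whose centre lay in such a gene or within 2 kb of its ends. Each peak was counted once and took the class (H1, H2A, H2B, H3 or H4) and name of the gene nearest its centre. The measurements were read counts per peak from ATAC-seq, in which a transposase cuts accessible DNA, so that a higher count marks more open chromatin or more cells in which the region is open. The 12 libraries came from NZO/HILtJ mice, an inbred strain known for polygenic obesity and diabetes, with 3 libraries from females and 3 from males at 18 months of age and the same numbers at 3 months. The labels name no other strain, no allele and no treatment.

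Replication-dependent histone genes supply the H2A, H2B, H3, H4 and linker H1 proteins that package newly copied DNA, and they are transcribed mainly in S phase. They lie in clusters, carry no introns as a rule, and give mRNAs that end in a stem-loop, bound by the protein Slbp, in place of a poly(A) tail. The coactivator Npat, switched on by cyclin E and its kinase, gathers at the clusters in nuclear histone locus bodies. In marrow, dividing progenitors, among them the erythroblasts that make red cells, are the cells that draw on these genes.

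The large Hist1 cluster on chromosome 13 held 54 of the genes (6 H1, 13 H2A, 15 H2B, 9 H3 and 11 H4) over chr13:21715711-23934913, a span of 2219203 bp. The Hist2 cluster on chromosome 3 held 10 genes (4 H2A, 2 H2B, 3 H3 and 1 H4) within 50308 bp at chr3:96219885-96270192. H2aw (older Hist3h2a) and its neighbour H2bu2 (Hist3h2ba) formed Hist3 on chromosome 11, and H4f16 (Hist4h4) stood alone on chromosome 6. Of the 67 genes, 58 had a member peak. Of the other 9, 7 lay under a wide peak whose centre was more than 2 kb away. The remaining genes were H2ac1 and H2bc1 (Hist1h2aa and Hist1h2ba), a testis-specific H2A and H2B pair, whose starts were 8167 and 7886 bp from the nearest peak.

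The promoters of these genes show the sequence elements by which the classes are known, and the sequences shown here are the 250 bases before the start of the gene nearest the most abundant peak of each class, followed by H2bu2, the gene at the peak with the smallest p for age. They are written 5′ to 3′ on the gene's strand, from RefSeq's GRCm38.p6 sequence. Capitals mark a TATA box, a CCAAT box (the element of the factor NF-Y) or an H1 box, each in either orientation.
H1f3 (chr13:23554782-23555031, plus strand): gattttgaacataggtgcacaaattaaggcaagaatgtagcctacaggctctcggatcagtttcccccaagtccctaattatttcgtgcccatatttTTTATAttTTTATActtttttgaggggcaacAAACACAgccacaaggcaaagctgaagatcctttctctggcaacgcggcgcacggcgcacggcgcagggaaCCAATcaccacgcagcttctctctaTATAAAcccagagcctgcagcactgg
H2ac10 (chr13:23533625-23533874, plus strand): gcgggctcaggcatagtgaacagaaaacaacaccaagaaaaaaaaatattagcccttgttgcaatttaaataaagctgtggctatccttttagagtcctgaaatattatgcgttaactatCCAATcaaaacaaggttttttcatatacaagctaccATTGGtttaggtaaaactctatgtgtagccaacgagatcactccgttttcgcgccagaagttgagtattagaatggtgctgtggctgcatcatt
H2bc7 (chr13:23574208-23574457, minus strand): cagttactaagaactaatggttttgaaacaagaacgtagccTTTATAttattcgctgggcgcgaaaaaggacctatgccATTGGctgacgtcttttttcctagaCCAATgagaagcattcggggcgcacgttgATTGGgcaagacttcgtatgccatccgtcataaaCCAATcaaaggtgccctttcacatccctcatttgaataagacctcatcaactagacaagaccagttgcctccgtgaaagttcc
H3c10 (chr13:21717378-21717627, plus strand): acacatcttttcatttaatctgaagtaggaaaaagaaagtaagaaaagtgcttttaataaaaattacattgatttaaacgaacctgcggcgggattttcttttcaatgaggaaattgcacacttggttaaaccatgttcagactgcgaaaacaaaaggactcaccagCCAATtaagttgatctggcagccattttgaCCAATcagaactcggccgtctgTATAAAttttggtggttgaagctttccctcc
H4c1 (chr13:23761250-23761499, minus strand): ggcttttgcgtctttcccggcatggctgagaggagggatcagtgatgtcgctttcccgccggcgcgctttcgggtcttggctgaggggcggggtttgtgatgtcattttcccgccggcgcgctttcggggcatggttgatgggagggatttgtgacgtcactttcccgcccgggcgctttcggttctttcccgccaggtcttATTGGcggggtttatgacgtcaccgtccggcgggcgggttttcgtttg
H2bu2 (chr11:58948661-58948910, plus strand): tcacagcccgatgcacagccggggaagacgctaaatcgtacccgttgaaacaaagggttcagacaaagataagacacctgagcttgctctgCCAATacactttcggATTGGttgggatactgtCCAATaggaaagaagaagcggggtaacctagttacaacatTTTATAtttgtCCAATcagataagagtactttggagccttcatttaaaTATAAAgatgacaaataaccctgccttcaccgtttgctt
In the H1f3 promoter, the H1 box stands upstream of a CCAAT box and a TATA box close to the start. H2bc7 has CCAAT boxes in both orientations, and the run covers the 174 bp between its start and that of the divergent gene H2ac7. H4c1 holds a single CCAAT box in reverse and none of the other elements marked.

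Promoter sequence was on hand for 62 of the 67 genes and not for H2bc21, H3c1, H3c7, H2bc4 and H4c14. Each motif was searched on both strands in the 250 bases before the start, and none of the motif strings contains another. CCAAT stood in 51 of 62 histone promoters (82.3%), against 33.8% of all 32851 promoters in the table. It was found in 6 of 6 H1, 18 of 18 H2A, 16 of 16 H2B and 8 of 10 H3 promoters, but in 3 of 12 H4 promoters. The TATA box TATAAA stood in 29 of 62 (46.8%, all promoters 12.4%). The octamer ATTTGCAT, bound by Pou2f1 (Oct-1), was present in 7 of 18 H2A and 6 of 16 H2B promoters and in no H1, H3 or H4 promoter (13 of 62, 21.0%, all promoters 1.60%). The H1 box AAACACA stood in 5 of 6 H1 promoters and 9 of 62 in all (14.5%, all promoters 6.25%). GGTCCG, part of the H4 element that the factor Hinfp binds, was in 9 of 12 H4 promoters and 11 of 62 in all (17.7%, all promoters 6.72%). These are matches of letters, not measured sites.

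Of the 62 starts, 54 lay under a peak, and 30 of the member peaks held at least 1 start, up to 5 in the peak nearest H2bc7. In 10 pairs the starts of divergent genes were at most 1000 bp apart. Every such pair joined an H2A to an H2B gene, with 164 to 281 bp between the starts, and in 7 pairs both starts lay under the same peak. The 8 starts under no peak were those of H2ac1, H2bc1, H2bc23, H2ac23, H2ac24 and H4bc24 (the H2B gene older named Hist1h2br), of the testis linker H1f6, 249 bp from the nearest peak, and of H3c14, 265 bp from it. H2bc23 and H4bc24 have identical promoters over 300 bases, so that reads placed at either copy, and the absence of a peak over them, are uncertain. They were the 1 pair of 1891 at 95% identity or more, with letters compared place by place. Copies with shifted starts are missed in this way. H4c17 and H4c18, at 32.0%, hold a TATA box at -128 and -127 and GGTCCG at -47 and -46, and whether they are near copies was not checked.

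The histone peaks were broad. The median width of the 53 that were tested was 2793 bp (453 to 11062 bp), against 706 bp over all tested peaks, and their median count density, in CPM (counts scaled to each library's total after TMM correction) per kb of peak, was 18.4 against 10.2. At 53 of the 54 peaks the counts passed the filter for testing (over 1 CPM in at least 2 libraries), as did 75164 of all 75281 peaks. The exception was a 290 bp peak at chr3:96246131-96246420 between H2ac18 and H3c14.

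Libraries held 7668099 to 12756647 counts in peaks. The titles place the 18-month libraries in runs 14 (females) and 15 (males) and the 3-month libraries in runs 28 to 31, so age and run cannot be told apart, nor can sex and run at 18 months. The labels do not say that each library is a separate animal, and p-values here measure the spread between these libraries. Tissue was given as bone marrow, whereas the protocol describes sorting CD3e+ CD8+ T cells. Of 10 T cell markers, Cd3e, Cd8a, Cd8b1 and Zap70 had no peak within 2 kb and the other 6, Lck and Cd3d among them, had one, while all 15 erythroid markers in the gene table had one. The defining CD8 genes and Cd3e were thus without a peak. In bulk libraries, fewer cells of a type and less open chromatin per cell cannot be told apart.

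At 18 months the histone clusters were less accessible than at 3 months, in every class and on all 4 chromosomes. Of 53 tested peaks, 41 were lower at 18 months and 0 were higher (quasi-likelihood F test in edgeR, sex in the model, Benjamini-Hochberg adjusted p under 0.05 over all 75164 tested peaks), where 11.6% of all tested peaks were called lower and 9.43% higher. All 53 estimates were below 0, against 47% of all tested peaks. The median log2 fold change, 18 against 3 months, was -0.48 for histone peaks and 0.02 over all peaks, with single peaks between -1.05 and -0.05. At 24 of 53 peaks the highest 18-month library lay below the lowest 3-month library (5.04% of all peaks), and the reverse held at 0 peaks (2.2%). Peaks of the clusters are neighbours and were counted in the same 12 libraries, so their number is not a number of independent observations. In these libraries all 15 erythroid marker genes with a peak were lower too (median -1.0), and their part in the result was not tested.

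The share of each library's counts that fell in the 54 peaks gives the same contrast without scaling factors. It was 0.264%, 0.299% and 0.325% (lowest, median, highest) at 18 months and 0.376%, 0.408% and 0.443% at 3 months, with means of 0.298% ± 0.024 and 0.410% ± 0.026 (SD, n = 6 each). The age groups did not overlap. Within 18 months the 3 female libraries (0.308% to 0.325%) all lay above the 3 male libraries (0.264% to 0.290%), while at 3 months females (0.394% to 0.443%) and males (0.376% to 0.420%) overlapped. By locus, Hist1 peaks took 0.228% ± 0.019 of counts at 18 months and 0.320% ± 0.021 at 3 months, Hist2 0.049% ± 0.0042 and 0.060% ± 0.0026, Hist3 0.0085% ± 0.00067 and 0.0142% ± 0.0012, and Hist4 0.0119% ± 0.00075 and 0.0158% ± 0.0012 (SD, n = 6 each).

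**Figure D1:**
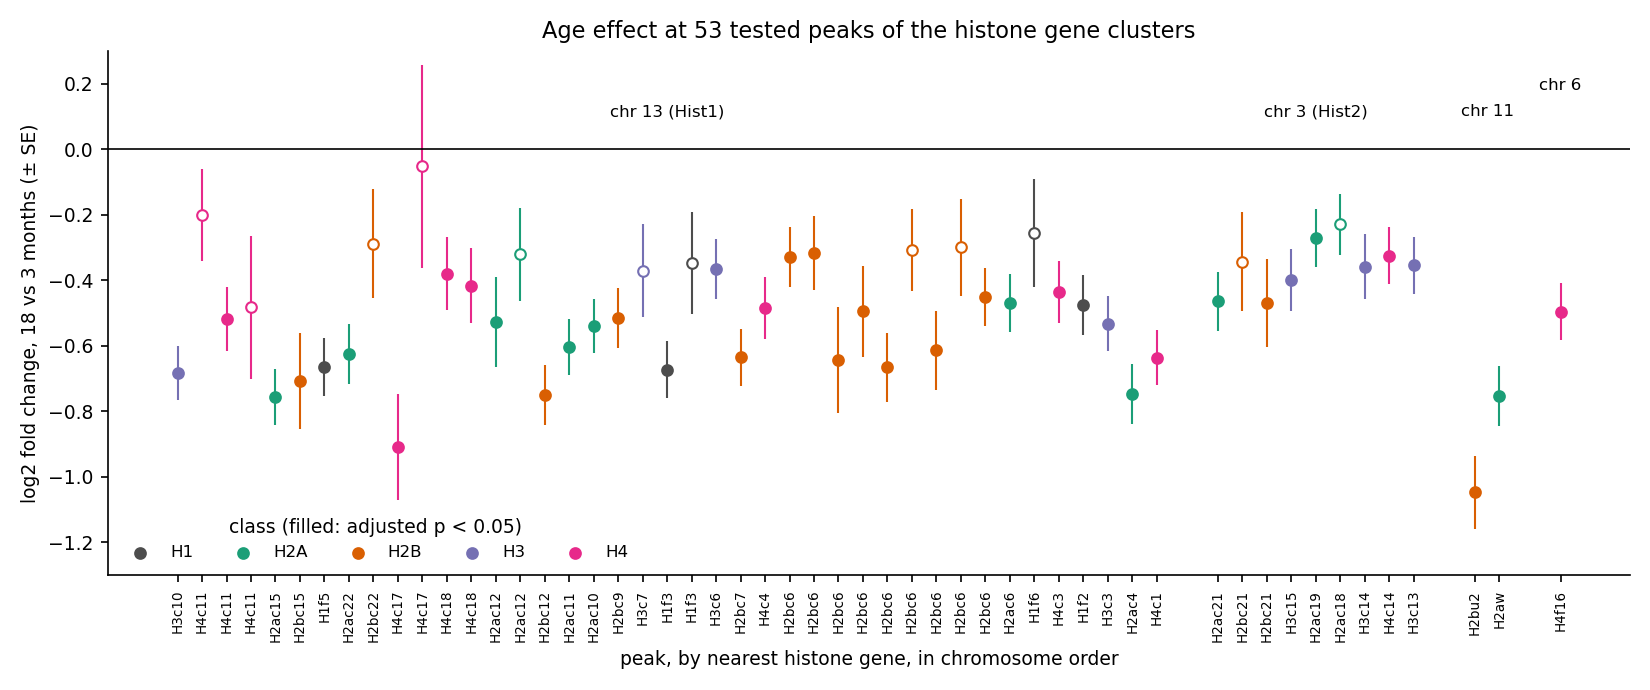
Log2 fold change (18 against 3 months, edgeR estimate, bars ± SE) at each of the 53 tested histone peaks in chromosome order, coloured by histone class and filled where the adjusted p was under 0.05. All points lie below 0, from -1.05 at H2bu2 to -0.05 at the minor H4c17 peak, and 41 are filled.

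Linker histone H1 compacts chromatin between nucleosomes. Of 5 tested H1 peaks, 3 were lower and 2 were not called (median log2 fold change -0.48). H1f1 and H1f4 lay under the peaks nearest H4c1 and H2bc6, so they are counted with H4 and H2B. The peak nearest H1f3 (H1.3), chr13:23550375-23556551, which also covers H4c6, held 86.9, 104.9 and 119.9 CPM (lowest, median, highest) at 18 months and 136.8, 170.8 and 190.7 CPM at 3 months. All 6 libraries of 18 months were below all 6 of 3 months, and the log2 fold change was -0.67 (SE 0.087, adjusted p = 6.45e-08). The estimates of many single peaks were nearer 0 in fits that took out each library's trend on peak abundance or on peak width, at H1f3 -0.41 and -0.42 in that order. At H1f5 (chr13:21778078-21784643) the means were 97.9 ± 9.62 and 154.8 ± 16.5 CPM (SD, n = 6 each), and the estimate was -0.66. At H1f2 they were 105.6 ± 14.7 and 146.2 ± 18.0 CPM (-0.48, adjusted p = 1.46e-04), and here the age groups overlapped by their extreme libraries. The uncalled H1 peaks were a minor peak beside H1f3 and the peak beside the testis gene H1f6 (7.05 ± 1.07 and 8.45 ± 2.59 CPM, adjusted p = 0.280).

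H2A and H2B form the outer dimers of the nucleosome. Of 12 tested H2A peaks, 10 were lower (median -0.53), and of 17 H2B peaks, 13 were lower (median -0.50). The most abundant H2A peak, 11062 bp at chr13:23528225-23539286 by H2ac10 and H3c8, held 163.7, 189.1 and 202.6 CPM at 18 months and 232.2, 274.5 and 297.2 CPM at 3 months, without overlap (log2 fold change -0.54, SE 0.082, adjusted p = 1.76e-06). With the abundance or the width trend removed its estimate was -0.26 or -0.27. A more negative estimate stood at the divergent pair H2ac15 and H2bc15, whose peak at chr13:21748943-21755244 also covers H4c12, with 88.2, 97.4 and 111.7 CPM at 18 months and 139.6, 170.2 and 180.6 CPM at 3 months. Its log2 fold change was -0.76 (SE 0.085, adjusted p = 2.38e-09), and -0.50 with either trend removed.

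Among H2B peaks, the most abundant was that of H2bc7 and H2bc8 at chr13:23569067-23577961, the peak with the most start sites. It held 132.1, 154.7 and 190.2 CPM at 18 months and 203.7, 246.0 and 285.2 CPM at 3 months, with no overlap and a log2 fold change of -0.64 (SE 0.087, adjusted p = 2.46e-07), against -0.36 and -0.37 with the abundance and width trends removed. The peak over H2bc12 and H2ac12 (chr13:22034678-22037937) averaged 57.0 ± 7.79 CPM (SD, n = 6) in old and 95.7 ± 9.51 CPM (SD, n = 6) in young mice, an estimate of -0.75. At the peak over H2ac4 and H3c2 (chr13:23749679-23754160) these averages were 58.7 ± 6.82 and 98.5 ± 9.83 CPM, also -0.75. Neither of these peaks overlapped between ages. H2bc6 is annotated with a long transcript of 37455 bp. In all, 8 tested peaks had their centre inside it and within 2 kb of no other member gene. Of these, 6 were lower (median -0.41), at levels of 4.97 to 66.2 CPM at 18 months.

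H2bu2, an H2B gene of Hist3 on chromosome 11, had the most negative estimate of the 53 peaks. Its peak (chr11:58947529-58949481) held 11.4, 20.2 and 23.2 CPM at 18 months and 35.3, 38.5 and 45.02 CPM at 3 months, a log2 fold change of -1.05 (SE 0.11, adjusted p = 5.42e-10). The 18-month females were at 23.2, 21.1 and 21.8 CPM and the males at 18.3, 19.2 and 11.4 CPM, so all 6 libraries lay below the lowest of 3 months. At H2aw (chr11:58953493-58958743), whose peak also covers Trim17, the log2 fold change was -0.75 (adjusted p = 1.24e-08), with averages of 63.3 ± 4.90 in old and 106.7 ± 11.9 CPM in young mice (SD, 6 libraries each) and no overlap.

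H3 and H4 form the central tetramer of the nucleosome. Of 7 H3 peaks, 6 were lower (median -0.37), and of 12 H4 peaks, 9 were lower (median -0.46). The H3c10 peak, 10547 bp at chr13:21713353-21723899 with 4 start sites, held 122.2, 147.9 and 170.2 CPM at 18 months and 208.1, 239.7 and 270.4 CPM at 3 months (log2 fold change -0.68, SE 0.083, adjusted p = 1.54e-08). The H4c1 peak at chr13:23755450-23765953 also covers H4c2, H3c1 and the linker gene H1f1. This peak held 137.8, 171.1 and 200.4 CPM at 18 months and 229.3, 263.6 and 283.5 CPM at 3 months (-0.64, SE 0.085, adjusted p = 1.11e-07). In both, every 18-month library was below every 3-month library. With the abundance or width trend removed the estimate was -0.41 in either fit at H3c10 and -0.36 in either at H4c1. A low peak at H4c17 (chr13:21811635-21812674), near H2bc23 and H2ac23, had the second most negative estimate, -0.91 (SE 0.16, adjusted p = 3.50e-05), with 2.89, 4.67 and 6.80 CPM at 18 months and 7.23, 9.11 and 11.6 CPM at 3 months. Whether reads of the H4c17 peak also match other copies was not checked. H4f16 on chromosome 6 (chr6:136802941-136807408) averaged 115.6 ± 10.4 in old and 162.9 ± 17.4 CPM in young mice (SD, 6 libraries each), an estimate of -0.50 without overlap (-0.23 and -0.26 with the abundance and width trends removed).

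**Figure D2:**
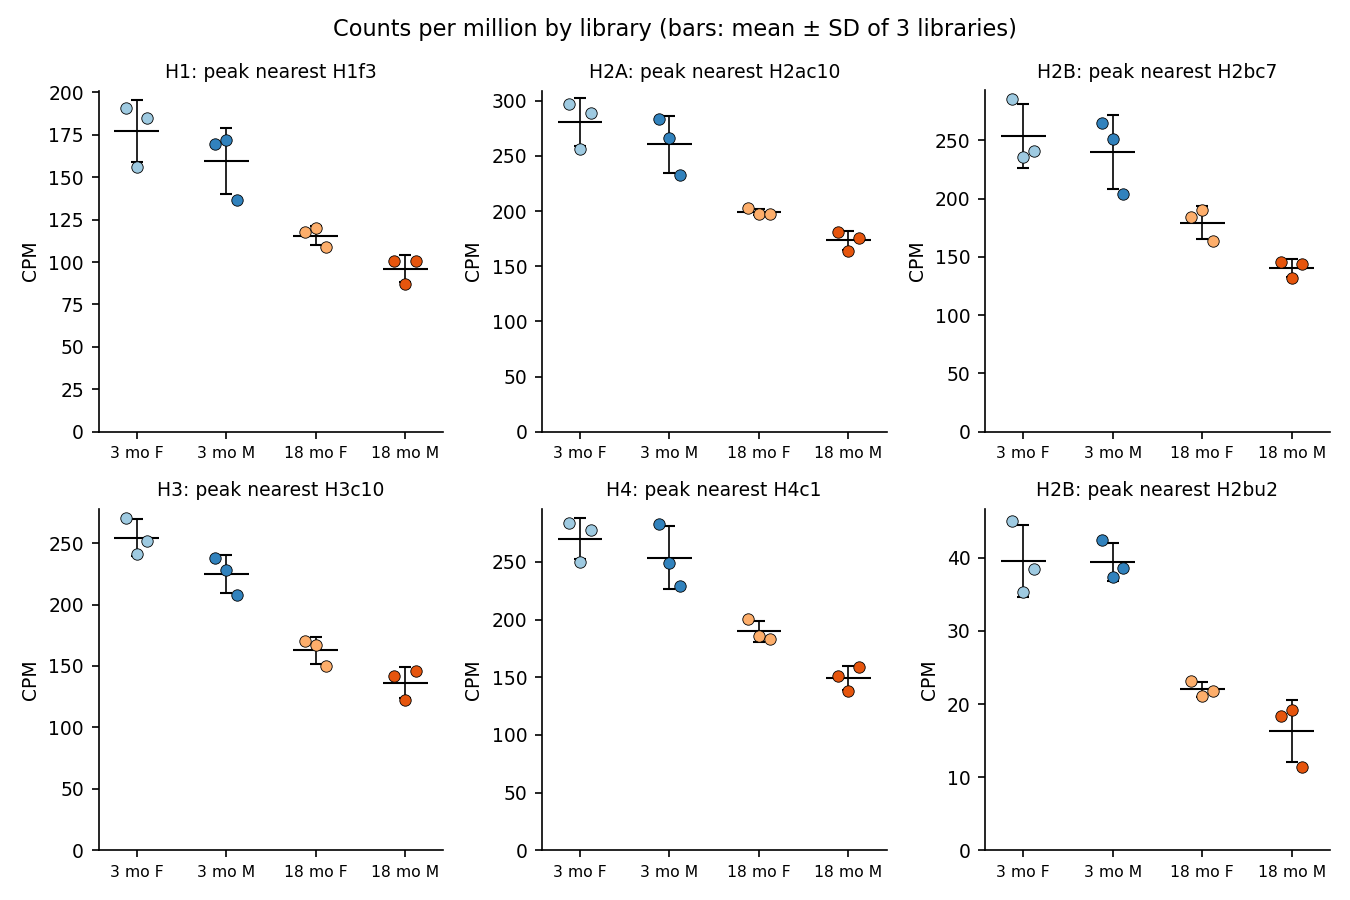
CPM in each library (points) with the mean and SD of 3 libraries (bars) for the most abundant peak of each class and for H2bu2, by age in months and sex (F, M). In all 6 panels every 18-month library lies below every 3-month library, and the 18-month male mean lies below the 18-month female mean.

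The Hist2 peaks on chromosome 3 had a median nearer 0. Of 9 tested, 7 were called (median log2 fold change -0.35, Hist1 31 of 41 and -0.50). With the abundance trend removed 3 of 9 were called (median -0.22), and with the width trend removed 2 of 9 (median -0.17). In those fits 10.3% and 9.45% of all tested peaks were lower, and 21.9% and 19.1% of other peaks of 3 kb or more. The Hist2 share with the width trend removed (22.2%) was near that of the other wide peaks. At H2ac21 (chr3:96218139-96222362) the means were 96.3 ± 16.01 and 132.0 ± 12.7 CPM (SD, n = 6 each, 18 and 3 months), -0.46 with overlap between the ages. H3c15 (chr3:96236589-96239143) was at 34.4 ± 3.35 and 45.4 ± 3.23 CPM, -0.40 without overlap. The gene table lists the older symbol Hist2h3ca1 for both H3c15 and H3c14, and whether reads at one also match the other was not checked. H4c14 (chr3:96260026-96264812), the H4 gene of the cluster, was at 97.0 ± 11.6 and 121.4 ± 4.90 CPM, -0.33 without overlap. H3c13 (chr3:96266200-96270363) was at 105.4 ± 13 and 134.4 ± 8.93 CPM, -0.35 with overlap. H2ac19 (-0.27, adjusted p = 0.0241) and H2ac18 (-0.23, adjusted p = 0.0720, not called) are neighbouring H2A copies known to be nearly identical, so reads placed at either are uncertain. With the abundance and width trends removed the estimates were -0.22 and -0.23 at H2ac21, -0.23 and -0.21 at H3c15, -0.08 and -0.09 at H4c14, -0.10 and -0.12 at H3c13, and -0.05 and -0.05 at H2ac19. Of these, H2ac21 was called in both fits, H3c15 with the abundance trend removed, and the other 3 in neither. At H2ac18 the estimate came as near 0 as -0.04 among the alternative scalings and filters. Whether Hist2 differed from Hist1 was not tested.

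Peaks were also split by the starts of the 62 genes with promoter sequence. Of 30 peaks over at least 1 such start, 29 were lower (median -0.53), and of the 23 others 12 were lower (median -0.35). The 23 include the H4c14 peak, which was lower and covers that gene whole, since H4c14 has no start in the promoter table. The exception over a start was H2ac18. The 2 kinds differed in abundance as well, with median levels of 6.63 and 3.12 log2 CPM, and a difference in effect was not tested. By width, 25 of 25 histone peaks of 3 kb or more and 16 of 28 narrower ones were lower (medians -0.53 and -0.38). The 12 uncalled peaks were 453 to 2471 bp wide. Among them H3c7 came nearest to the threshold (10.5 ± 1.19 and 13.5 ± 3.92 CPM, -0.37, adjusted p = 0.0537), and the minor H4c17 peak was the lowest in counts (1.64 ± 0.62 and 1.69 ± 0.76 CPM, -0.05).

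The difference was present in both sexes. In females 29 of 53 peaks were lower at 18 months and 0 higher (all tested peaks 6.2% and 5.7%), with a median log2 fold change of -0.41 and all 53 estimates below 0 (48.8% of all tested peaks). In males 33 were lower and 0 higher (all tested peaks 8.18% and 3.21%), with a median of -0.55 and 51 estimates below 0. The other 2, the minor H4c17 peak (0.31) and the peak beside H1f6 (0.13), were not called. At 22 peaks the call was made in females and in males (3.57% of all peaks), among them H2bu2 (-0.85 in females, -1.26 in males), H2ac15 (-0.69 and -0.82), H2aw (-0.74 and -0.77) and H3c10 (-0.65 and -0.72). Without the 18-month female library 35 the female count was 19, and without the 3-month female library of run 28 it was 18. With the abundance trend removed, 26 peaks were called in females and 21 in males, so the order of the sexes by count was reversed, and with the width trend removed 20 and 25 were called, males again having more. The shares of all tested peaks called within a sex in these fits are not given here, so these counts are not read as a difference between the sexes.

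The male estimate was the more negative at 40 of 53 peaks (51% of all tested peaks), but edgeR called the interaction of age and sex at 0 histone peaks (0.00532% of all tested peaks, 4 of 75164). The smallest adjusted p was 0.405, at the peak beside H1f6, and 5 of 53 peaks had an unadjusted p under 0.05 (10% of all peaks). DESeq2 also called 0. Between males and females, adjusted for age, 0 histone peaks were called (0.162% of all peaks), with the smallest adjusted p at 0.257 for H3c6. Of the 53, 17 had an unadjusted p under 0.05 (7.57% of all peaks), and 42 estimates were lower in males (all peaks 48.7%). At 18 months the sexes were sequenced in different runs.

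**Figure D3:**
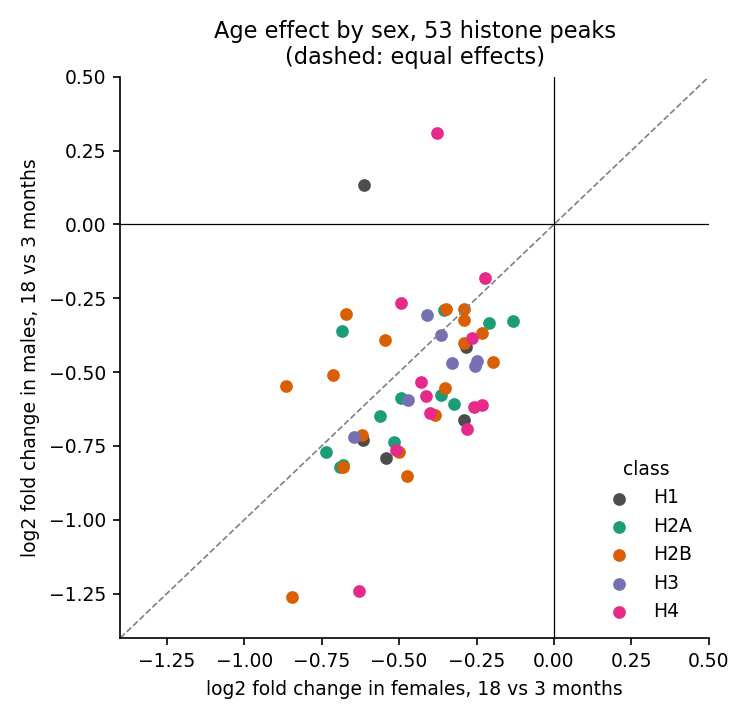
Log2 fold change at the 53 tested histone peaks in females (horizontal) and males (vertical), 18 against 3 months, coloured by class, with a dashed line of equal effects. Most points (40 of 53) lie below the dashed line, and 2 lie above 0 in males.

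Since the histone peaks are wide and deep, they were set beside other wide peaks and beside their neighbours. Of 2575 other peaks of 3 kb or more, 43.1% were lower and 5.98% higher at 18 months (median -0.20), and of 16882 other peaks under 3 kb near gene ends, 16.7% were lower (median -0.07). Within the Hist1 span on chromosome 13, 79 tested peaks were not histone peaks, of which 23 were lower and 3 higher (median -0.22). Their distance to a histone gene was not limited, and the span includes chr13:22043658-23531044, between H2bc11 and H4c8, without a member gene. Within the Hist2 span, 2 of 8 such peaks were lower. Since wide peaks as a whole were lower, the fit was repeated with offsets that take out each library's trend on abundance or on width.

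With the abundance trend removed, 36 of 53 histone peaks were lower and 0 higher (all tested peaks 10.3% lower), at a median of -0.35. Other peaks of 3 kb or more were then 21.9% lower and 23.0% higher (median 0.02). With the width trend removed, 32 were lower and 0 higher (all tested peaks 9.45% lower), at a median of -0.33, and other wide peaks were 19.1% lower and 21.5% higher (median 0.02). All 53 histone estimates stayed below 0 in both fits. The Hist1 count was 30 and 27 of 41 in these fits, while the Hist2 count went from 7 to 3 and 2 of 9. H2bu2, H2aw and H4f16 were lower in both. With total counts in place of TMM factors, 39 histone peaks were lower and 52 of 53 estimates were below 0 (all tested peaks 8.82% lower and 14.9% higher), and with DESeq2 42 were lower and 0 higher (all tested peaks 11.9% lower).

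**Figure D4:**
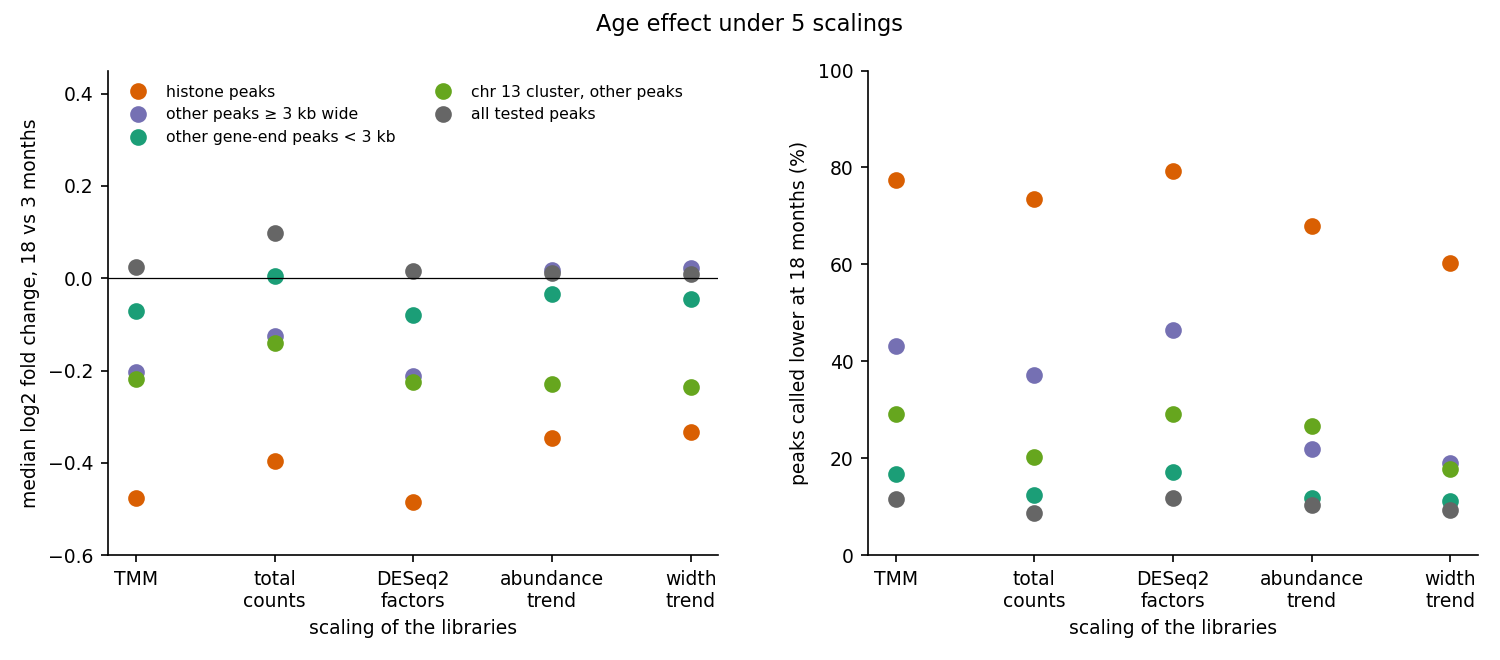
Median log2 fold change (left) and percent of peaks called lower at 18 months (right) under 5 scalings of the libraries, for histone peaks, other wide peaks, other narrower gene-end peaks, the other peaks anywhere in the Hist1 span on chromosome 13 and all tested peaks. Histone peaks have the most negative median and the highest share called under each scaling (77.4% with TMM, 60.4% with the width trend removed), while other wide peaks move from a median of -0.20 to 0.02.

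Genes that act with the histone genes were followed through their most abundant peak within 2 kb. Over all tested peaks 11.6% were lower and 9.43% higher, and near gene ends 44.7% of other peaks of 3 kb or more (median -0.22) and 16.7% of those under 3 kb (median -0.07) were lower. The lists hold peaks of both widths. Of 20 S phase genes, 15 were lower and 0 higher (median log2 fold change -0.34). Ccne2, a cyclin E that drives entry into S phase, was at 41.4 ± 2.24 and 65.9 ± 8.87 CPM (SD, n = 6 each, 18 and 3 months), -0.67 with adjusted p = 2.76e-07. Rrm2, the small subunit of ribonucleotide reductase, was at 78.1 ± 7.39 and 105.9 ± 7.36 CPM, -0.44. The Mcm helicase genes were split, with Mcm2, Mcm3 and Mcm6 lower (-0.33, -0.29 and -0.29) and Mcm4, Mcm5 and Mcm7 not called (-0.26, -0.19 and -0.12). Of 14 histone chaperone genes, 10 were lower and 0 higher (median -0.31), among them Asf1a (-0.45), which hands H3 and H4 to assembly factors, Supt16 of the FACT complex (-0.44), and Chaf1b and Chaf1a of the replication-coupled assembly factor CAF-1 (-0.38 and -0.29).

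Of 16 genes for transcription and 3′ end processing of histone mRNA, 7 were lower and 0 higher (median -0.24). They included Srrt (-0.51), which joins the cap-binding complex to RNA processing, Upf1 (-0.41), which takes part in histone mRNA decay, Slbp (-0.35, also in the S phase list), Pou2f1 (-0.37) and Hinfp (-0.31). Npat was not called (-0.17, adjusted p = 0.270). Of 11 replication-independent histone genes, whose products can also be deposited outside S phase, 4 were lower and 0 higher (median -0.19). These were H2ax (-0.50), the variant phosphorylated at DNA breaks, H2az2 (-0.37), H3f3a (-0.33) and H2az1 (-0.27). The shares lower in the processing list and in the variant list lay between those of other gene-end peaks under 3 kb (16.7%) and of 3 kb or more (44.7%).

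Leaving out each library in turn, a choice made for these lists after the data were seen, moved the counts of 2 lists by over 1.5 times. The chaperone count was 6 without 18-month female 42, male 38 or male 40, and the transcription and processing count was 4 without 18-month female 42, 18-month male 39 or the 3-month male of run 29. The S phase count was 11 to 17 and the variant count 3 to 5 over the 12 such fits. Fewer genes of these lists were called when the abundance or width trend was removed. The S phase count was 7 and 8 of 20, the chaperone count 4 and 5 of 14, the transcription and processing count 3 lower with 2 higher and 3 lower with 1 higher of 16, and the variant count 1 and 1 of 11 (abundance and width trend). In these fits, of other peaks near gene ends, 18.7% and 16.2% of those of 3 kb or more and 11.7% and 11.2% of narrower ones were lower. The transcription and processing count was near the share of the wide ones, and the variant count was below the shares of both widths. The S phase and chaperone counts were above both. With total counts, 11, 7, 5 and 3 were lower in the same order, and 1 variant gene was higher, where 37.5% of other wide and 12.4% of narrower gene-end peaks were lower. A difference between these lists and the histone peaks was not tested.

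Markers of marrow lineages were read in the same way, against 11.6% lower and 9.43% higher over all tested peaks. All 15 erythroid genes with a peak were lower at 18 months (median -1.0), with Slc4a1, the red cell anion exchanger, at 53.4 ± 4.97 and 117.5 ± 13.5 CPM (-1.14) and the globin gene Hbb-bs at 22.7 ± 1.43 and 53.9 ± 8.29 CPM (-1.24). Their mean level per library was 4.45 to 4.70 log2 CPM at 18 months and 5.34 to 5.73 at 3 months, and all 15 were called under each scaling run. The histone peaks' mean level was 4.77 to 4.97 log2 CPM at 18 months and 5.26 to 5.47 at 3 months. Of 13 neutrophil and myeloid genes, 9 were higher and 0 lower (median 0.34), as at Ltf (0.77) and Ngp (0.67), which encode granule proteins, with mean levels of 4.85 to 5.08 and 4.43 to 5.01 log2 CPM at 18 and 3 months. The 3-month male of run 30 stood apart at 5.01, within the range of 18 months, and the other 5 libraries of 3 months lay between 4.43 and 4.56. Without it the myeloid count was also 9 (median 0.45), and over the 12 fits without 1 library it was 6 to 9. Of 10 B cell genes, 1 was lower (Pax5, -0.39), near the share over all peaks, and of 6 T cell genes with a peak, Lck was lower (-0.40) and Cd3d and Cd28 were higher (0.45 and 0.44). With DESeq2 the myeloid count was 6 higher, and with the width trend removed 0 B cell genes and 1 T cell gene (higher) were called. The T cell count was 3 higher and 1 lower with total counts, and 1 higher and 1 lower with DESeq2 or with the abundance trend removed. Without 1 library the B cell count was 0 to 2, with 0 when 18-month male 40 or the 3-month male of run 29 was left out and 2 without the 3-month female of run 29, and the count of T cell genes called higher was 1 in 7 of the 12 fits.

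**Figure D5:**
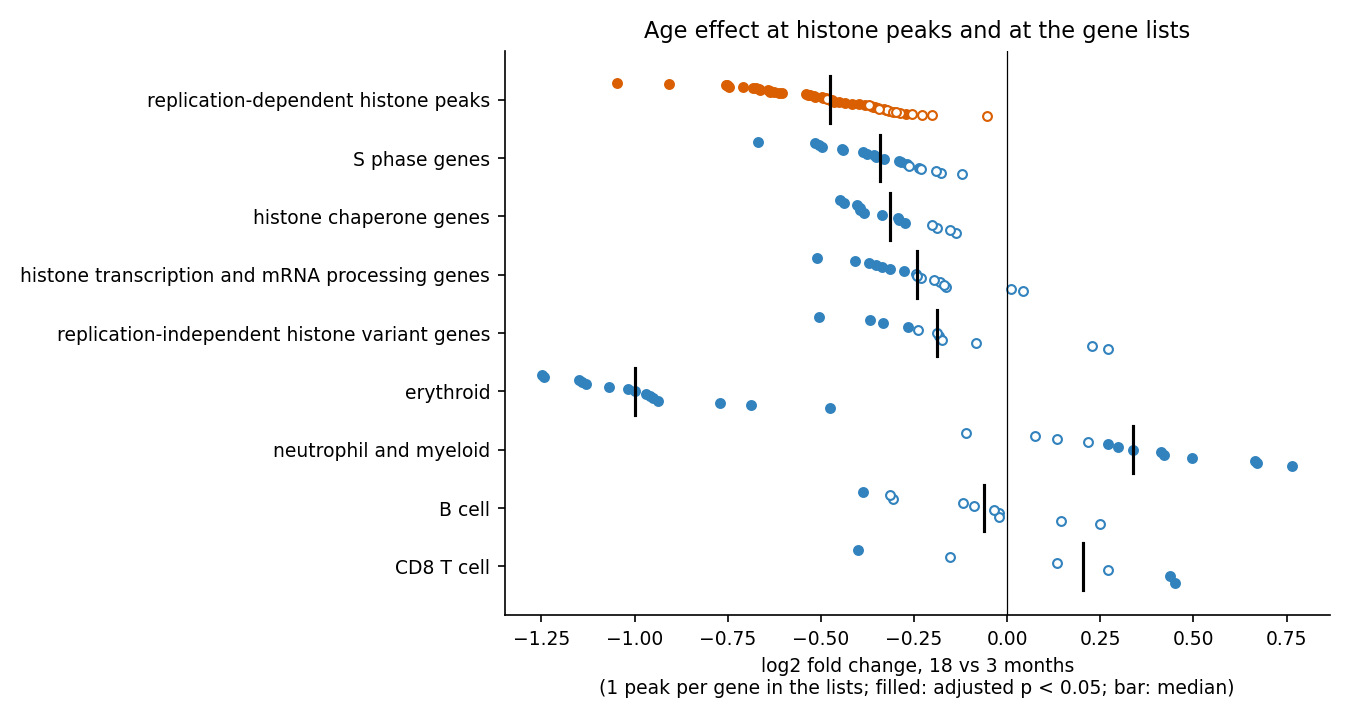
Log2 fold change, 18 against 3 months, of the 53 tested histone peaks and of 1 peak per gene in the lists of related genes and lineage markers, filled where the adjusted p was under 0.05, with the median as a bar. Histone peaks (median -0.48) lie between the S phase genes (-0.34) and the erythroid markers (-1.0), and the myeloid markers lie mostly above 0.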

How the data were processed

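ATAC-seq read counts per consensus peak in 12 bone marrow libraries were used as the authors deposited them (75281 peaks, smallest value 1). The submitters' processing notes name mm10, Trimmomatic, BWA, MACS2, DiffBind and edgeR, and settings, the placing of reads with several matches included, are not given in the sources used here. Depth was 7668099 to 12756647 counts in peaks per library, and 0 library pairs held identical values.

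Genes and promoters came from RefSeq tables of GRCm38.p6. The members and lists were chosen with earlier results of these data known. The written rule on newer symbols leaves out H2aw, H2bu2, H4f16 and H4bc24, which have older Hist1h, Hist3h or Hist4h symbols and were kept. A list gene was read at its most abundant peak within 2 kb.

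Peaks over 1 CPM in at least 2 libraries (75164) were fitted with edgeR 4.0.16 in R 4.3.3 (TMM factors, quasi-likelihood F test, all 12 libraries, sex as covariate, or 4 group means for effects within a sex and the interaction), with Benjamini-Hochberg adjustment over all tested peaks. Levels are TMM-scaled CPM. Peaks were described singly if among the 6 largest falls, the most abundant of a class or the 8 most abundant outside chromosome 13, and others were named after their values were seen. Alternatives were total counts, DESeq2 1.42.0, lowess offsets on abundance or width (span 0.3), no filter, over 2 CPM in at least 6 libraries, leaving out each library, and other windows and symbol rules. On simulated counts for the age comparison (75164 peaks, 50 changed at each fold), 78% and 94% of changes of -1 and 1 (log2) were called, 22% and 24% of changes of -0.5 and 0.5, and 6.84% of calls were false.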

Additional observations from a re-analysis of the deposited data

Results flagged for a closer look

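The share of counts in the Hist3 peaks (H2bu2 and H2aw) at 18 months had a library that stood apart. Male library 40 was the lowest, at 0.00717% of its counts, and the other 5 libraries of 18 months lay between 0.00852% and 0.00917%. Its gap to the next library was the larger part of the whole range, above the limit of Dixon's test at 95% for 6 libraries. In that library H2bu2 was at 11.4 CPM, against 18.3 to 23.2 CPM in the other 5, and H2aw at 57.6 CPM, against 61.1 to 72.1 CPM. All values of 18 months lay below all 6 of 3 months (0.0130% to 0.0154%), and leaving out the lowest cannot change that.

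Among the 3-month libraries, the mean level of the neutrophil and myeloid genes was highest in the male of run 30, at 5.01 log2 CPM, where the other 5 lay between 4.43 and 4.56. The mean level of the S phase genes was lowest in the 3-month male of run 31, at 5.49 log2 CPM, where the other 5 lay between 5.72 and 5.83 and the 18-month libraries between 5.23 and 5.60. Both gaps passed the same limit. Without the male of run 31, the count of S phase genes called lower was also 15. Of 64 groups of values checked, 3 were marked, and chance marks about 1 group in 20.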

How the results depend on the processing

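No alternative gave a histone peak called higher at 18 months or an interaction. The median log2 fold change, -0.48, moved to -0.345 with the abundance trend removed and to -0.333 with the width trend removed, and the male count went from 33 to 21 with the abundance trend removed. With the 17 peaks whose centre lies inside a gene, 13 were lower, 7 were called in females and 11 in males, from fewer peaks, and within 5 kb 53 of 79 tested were lower. Leaving out each library in turn gave 40 to 45 lower peaks, medians of -0.52 to -0.44, 26 to 35 called in males, 18 to 32 called in females (19 without 18-month female 35, 18 without the 3-month female of run 28) and 0 to 2 called by sex (2 without the 3-month male of run 30). Of 324 values for 18 named peaks under 18 alternatives each, 311 kept their call, 0 reversed, 11 lost it and 2 gained it. The size moved more: with either trend removed, 13 of the 18 estimates were over 1.5 times nearer 0, of which 10 (abundance) and 9 (width) kept their call. Lost calls were those of H2ac19 (total counts, both trends and leaving out 18-month male 39, the 3-month female of run 28 or the 3-month male of run 29), H4c14 and H3c13 (both trends) and H3c15 (width trend, adjusted p = 0.0651), all in Hist2, and the cause was not tested. H2ac18 gained a call with DESeq2 (adjusted p = 0.0428) and without the 3-month female of run 31 (0.0496). Leaving out H2aw, H2bu2, H4f16 and H4bc24, a choice made after the data were seen, changed no call of the summary. No pairing by replicate number was possible because none is shared between the groups. Runs 29 and 31 each hold a female and a male library of 3 months, and a comparison of the sexes blocked by these runs was not run. In simulated counts with 50 peaks changed at each fold, changes of 0.5 (log2) were mostly missed. The data held 15776 called peaks, so the adjusted threshold was less strict there, and the simulated share called does not carry over to these peaks. A peak that was not called is still not shown to be unchanged.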
